A study of Mus musculus with 45 samples.

Results

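Glutathione peroxidases reduce hydrogen peroxide and lipid hydroperoxides, and take the electrons for it from glutathione, whose synthesis depends on cysteine. Gpx1 works in the cytosol and mitochondria, Gpx3 is secreted, and Gpx4 reduces peroxidised phospholipids in membranes and is the enzyme whose loss leads to ferroptosis. These enzymes carry selenocysteine at the active site, an amino acid that is read from an in-frame TGA codon. Gpx7 and Gpx8 lie in the endoplasmic reticulum, carry cysteine at that position and work with protein disulfide isomerases in oxidative protein folding. The values described here are those of Gpx1, Gpx3, Gpx4, Gpx7 and Gpx8, chosen by gene symbol, which are 5 of the 28454 genes measured in 45 mRNA libraries of mouse mammary tumour cell lines.

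The MYAZ lines MYAZ16.1e, MYAZ12.3i and MYAZ6.6g came from mammary tumours of MMTV-cMYC mice, in which the mammary tumour virus promoter drives MYC, and Myc310 was a single line from a mouse of that kind with multiple tumours. LM1, LM2 and LM3 were recovered from lungs after Myc310 cells had been injected into the mammary fat pad, and LM1-LM, LM2-LM and LM3-LM were recovered from lungs after a further passage, which is described for LM1-LM as an injection of LM1 cells, with the other two given as its biological replicates. By this description all these lines derive from tumours of MYC-transgenic mice, and LM1 and LM1-LM trace back to Myc310 cells. Whether each line carries the MYC transgene was not tested here. A further line, MYAZ12.3i_NDI1, is labelled as MYAZ12.3i with NDI1. Cells were plated at 250000 per well for 24 h and then kept for 6 h in control medium (all 11 lines) or in medium without cysteine and cystine (MYAZ16.1e, Myc310, LM1 and LM1-LM). Every line and condition has 3 cultures, which the study's design text calls technical replicates. In the deprivation and NDI1 comparisons, p-values therefore measure the spread between cultures and not between independently derived lines. In the comparisons of subtypes, they pool the spread between cultures with that between the lines of a subtype, and count every culture as independent.

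Libraries held between 19517859 and 29019988 counts on genes, with a median of 22899900. Of the mammary epithelial markers, Krt8, Krt18 and Krt19 were high (Krt8 averaged 521 CPM in MYAZ and 1279 CPM in LM), whereas Epcam and Cdh1, which define epithelial cells, reached at most 21 and 6 counts in a library. Of the 6 mammary markers tested, 2 were higher and 3 lower in LM than in MYAZ, with a median log2 fold change of -1.51. In LM-LM 2 were also higher and 3 lower, with a median of -2.27. Krt14 and Krt17 averaged 0.424 and 1.11 CPM in MYAZ and 0.0421 and 0.0367 CPM in LM. Of the 10 fibroblast markers, Dcn, Lum, Fap and Thy1 were at 3 counts or fewer in all libraries, whereas Col3a1, Pdgfra and Pdgfrb reached 4764, 1450 and 1015 counts in a library. Lyz2 of the leukocyte markers and Sftpc, Sftpb and Scgb1a1 of the alveolar markers were also at this floor. CPM are counts per 1000000 library counts after TMM scaling.

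The active-site codon separates the members in the reference sequence. The coding stretches around it are shown because they tell which members need selenocysteine and because the RNA results are ordered by this division. They come from GENCODE mouse release 21 on GRCm38, each has 45 bases, and the capitals mark the active-site codon.
Gpx1: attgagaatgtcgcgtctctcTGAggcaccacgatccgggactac
Gpx3: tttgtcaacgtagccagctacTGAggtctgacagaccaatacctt
Gpx4: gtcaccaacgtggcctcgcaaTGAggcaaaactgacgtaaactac
Gpx7: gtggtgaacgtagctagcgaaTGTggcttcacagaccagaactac
Gpx8: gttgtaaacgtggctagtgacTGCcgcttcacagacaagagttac
Gpx1, Gpx3 and Gpx4 hold TGA, which the annotation marks as selenocysteine, at codons 47, 73 and 129 of the longest coding sequence. Gpx7 and Gpx8 hold the cysteine codons TGT and TGC at codons 56 and 79. Gpx7 and Gpx8 share 35 of the 45 bases, more than any other pair of members, whose shared bases ranged from 21 to 30. The Gpx1 stretch lies in exon 1 on the plus strand at chr9:108339430-108339474, that of Gpx3 in exon 2 on the plus strand at chr11:54907235-54907279, and that of Gpx4 in exon 3 on the plus strand at chr10:80054716-80054760. Those of Gpx7 (chr4:108403409-108403453) and Gpx8 (chr13:113045640-113045684) both lie in exon 2 on the minus strand.

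Gpx4 and Gpx1 were the abundant members, Gpx8 was intermediate, Gpx3 was near the limit of counting and Gpx7 had no count. Over the 45 libraries the median level per kilobase of annotated exon was 132 CPM per kb for Gpx4, 107 for Gpx1, 25.9 for Gpx8 and 0.378 for Gpx3. On this scale Gpx4 made up 43.4% to 60.4% of the summed level of the members, Gpx1 33.5% to 45.8%, Gpx8 3.28% to 13.6% and Gpx3 0.00969% to 1.12%. Gpx4 varied least, from 184 to 254 CPM over all libraries, a ratio of 1.38 between the highest and the lowest, and Gpx1 ranged from 116 to 182 CPM, a ratio of 1.56. Gpx8 ranged from 7.95 to 36.4 CPM, a ratio of 4.58. Gpx3 had between 1 and 133 counts per library.

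Gpx7 (ENSMUSG00000028597) had 0 counts in all 45 libraries. The limit that a count of 0 allows, 3 counts, corresponds to 0.102 to 0.155 CPM in a single library and to 0.00289 CPM over all libraries together, and covers counting error only. Gpx7 therefore entered no test, and the counts of members below are over the other 4. Of the remaining peroxidases, Gpx2 (an intestinal form), Gpx5 (an epididymal form) and Gpx6 (an olfactory form) each had 1 count in 1 library.

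In control medium, the question was how the peroxidases differed between the MYAZ tumour lines, Myc310 and the lines taken from lungs. Among the MYAZ lines, the paper reports lung metastasis after injection only for MYAZ16.1e. Gpx8 was 1.90 times as high in LM and 1.97 times as high in LM-LM as in MYAZ, Gpx4 did not pass the test in any of these comparisons, and Gpx1 passed it only in Myc310 against MYAZ, where it was lower. Gpx3 was lower in LM and LM-LM than in MYAZ by the test across cultures, but this rested on the line MYAZ6.6g.

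**Figure D1:**
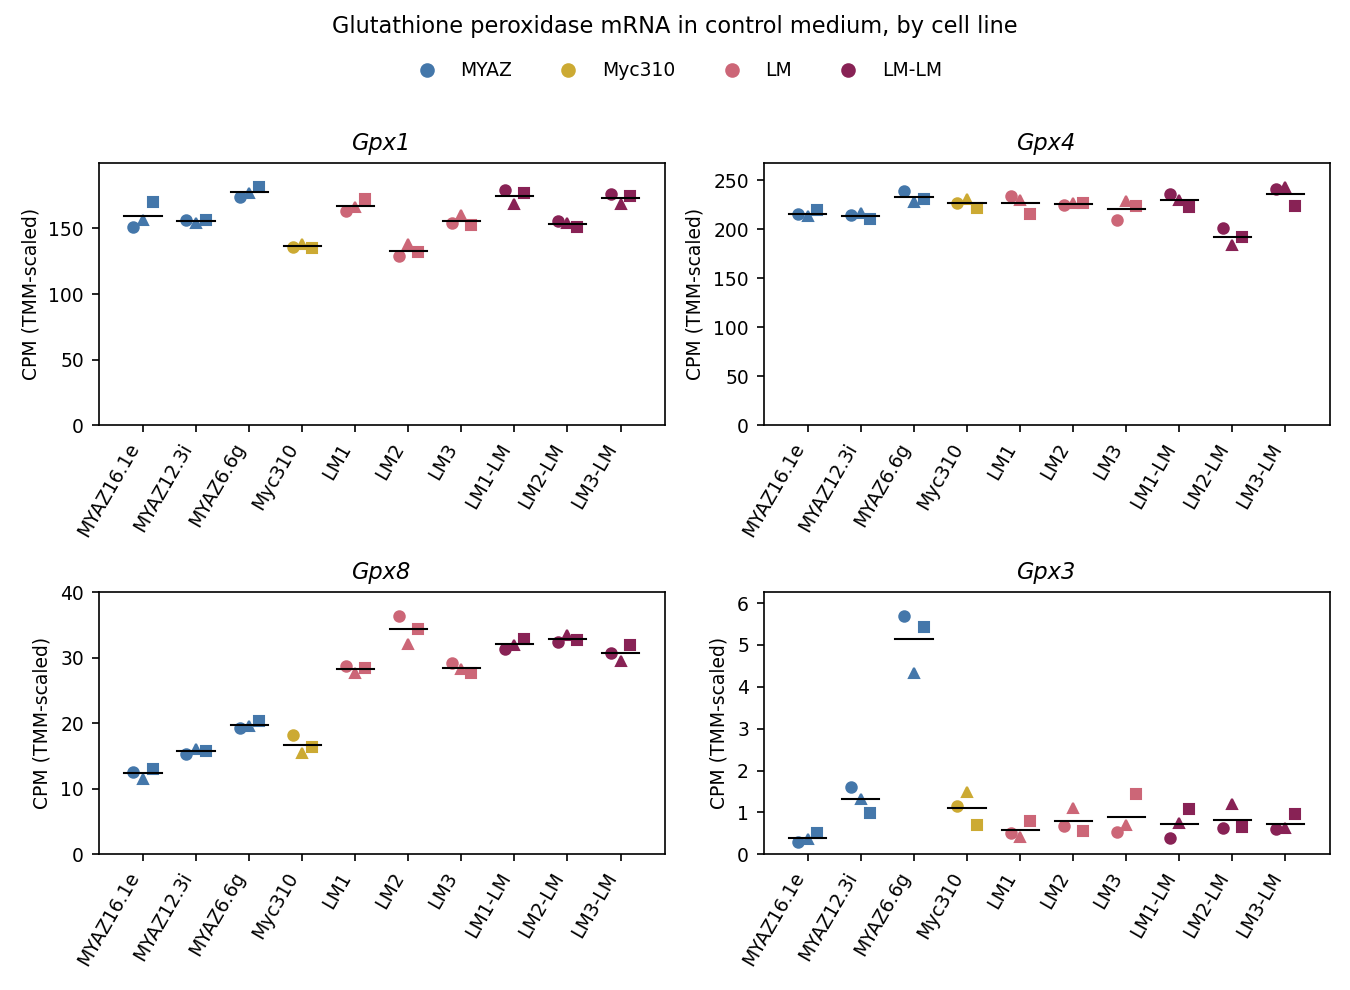
Level of each expressed member in control medium, in CPM after TMM scaling over all 45 libraries (y axes start at 0), in 10 lines with 3 cultures each (circle, triangle and square for replicates 1, 2 and 3) and the mean of each line as a bar, coloured by subtype. All LM and LM-LM cultures lie above all MYAZ and Myc310 cultures for Gpx8, and for Gpx3 the MYAZ6.6g cultures, between 4.32 and 5.70 CPM, lie above all others.

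Gpx8 (ENSMUSG00000021760), which spans chr13:113042753-113046410 (minus strand), had 12.57, 11.55 and 13.05 CPM in the cultures of MYAZ16.1e, 15.3, 16.0 and 15.8 CPM in MYAZ12.3i, and 19.3, 19.6 and 20.3 CPM in MYAZ6.6g. Myc310, the line injected to obtain LM1, had 18.3, 15.4 and 16.3 CPM and so lay within the range of the MYAZ lines. The 9 LM cultures ranged from 27.6 to 36.4 CPM with a median of 28.7, and the 9 LM-LM cultures from 29.4 to 33.5 CPM with a median of 32.0. No LM or LM-LM culture overlapped any MYAZ or Myc310 culture. Of all genes tested, 27.5% were separated in this way, in either direction, between LM and MYAZ, 27.0% between LM-LM and MYAZ, 13.3% between LM and Myc310 and 15.2% between LM-LM and Myc310. Averaged over line means (± SD, n = 3 lines), MYAZ had 15.9 ± 3.68, LM 30.3 ± 3.45 and LM-LM 31.9 ± 1.09 CPM. Against MYAZ, Gpx8 rose by 0.93 on the log2 scale in LM (standard error 0.089), with an adjusted p of 2.99e-10 in the quasi-likelihood test of edgeR after Benjamini-Hochberg adjustment. The corresponding value of LM-LM was 0.98 (standard error 0.089, adjusted p = 9.01e-11), and that of LM against Myc310 was 0.87 (standard error 0.13, adjusted p = 6.02e-05). LM-LM did not differ from LM beyond the spread (0.05 on the log2 scale, 95% confidence interval -0.13 to 0.23), nor Myc310 from MYAZ (0.06, 95% confidence interval -0.20 to 0.31), although Myc310 passed without MYAZ6.6g (0.24, adjusted p = 0.0480 in edgeR).

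Over line means, the exact permutation test (two-sided) gave p = 0.1 for Gpx8 in both LM and LM-LM against MYAZ, the smallest p that 3 lines against 3 allow. The LM lines were all recovered after injection of Myc310 cells, and LM1-LM after a further passage of LM1. They share that origin, whereas this test and the SD over lines treat lines as independent. With the line as a random block in limma's voom, the difference of LM against Myc310 was about as large (0.83) but its adjusted p was 0.0766. In order from the lowest line mean, MYAZ16.1e was followed by MYAZ12.3i, Myc310, MYAZ6.6g, LM1, LM3, LM3-LM, LM1-LM, LM2-LM and LM2. The cultures of neighbours in that order overlapped between MYAZ12.3i and Myc310, between LM1 and LM3, and among LM3-LM, LM1-LM, LM2-LM and LM2. Markers of other cell types also differed between the subtypes: the summed level of the fibroblast list in control medium was 7.46 to 98.4 CPM in MYAZ, 1.73 to 2.16 in Myc310, 15.1 to 125 in LM and 34.1 to 217 in LM-LM, with Col3a1 at 3.90, 0.469, 54.0 and 95.5 CPM. Against MYAZ, most members of that list went the other way: of the 5 tested, 1 was higher (Col3a1) and 3 were lower in LM than in MYAZ (median log2 fold change -2.61), and 1 was higher and 4 were lower in LM-LM (median -2.73). In LM against Myc310, 1 of the 5 was higher, 0 were lower and 4 were not called (median 3.03). Pdgfrb averaged 18.8 CPM in MYAZ, 0.0571 CPM in Myc310 and 0.498 CPM in LM, and Pdgfra 20.6, 1.08 and 10.6 CPM. The leukocyte list summed to 4.17 to 6.31 CPM in MYAZ, 9.55 to 10.38 in Myc310, 9.43 to 17.5 in LM and 12.34 to 19.66 in LM-LM, mostly from Cd68. Of the 2 leukocyte genes tested, 2 were higher and 0 lower in Myc310, LM and LM-LM, each against MYAZ (median log2 fold changes 2.33, 2.62 and 2.67). The endothelial list summed to 3.57 to 7.08 CPM in MYAZ, 0.434 to 0.704 in Myc310, 0.0938 to 0.953 in LM and 0.258 to 0.670 in LM-LM, and the MYAZ sum was mostly Kdr, which averaged 5.10 CPM in MYAZ and 0.175, 0.0778 and 0.0543 CPM in Myc310, LM and LM-LM. Of the 2 endothelial genes tested, 1 was lower (Kdr) and 1 was higher (Cdh5, 0.0235 CPM in MYAZ and 0.279, 0.291 and 0.236 CPM in Myc310, LM and LM-LM) in each of these subtypes against MYAZ. The alveolar list summed to at most 2.00 CPM in any subtype. In bulk RNA, fewer cells of a type and less RNA per cell cannot be told apart. The part of these genes in the Gpx8 difference was not tested. The annotated span of Gpx8 overlaps that of Cdc20b on the other strand, and whether their exons overlap was not tested. Where exons overlap, reads of Gpx8 and Cdc20b cannot be told apart unless strand was used in counting, which is not given in the sources used here.

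The sequence just upstream of Gpx8 is shown because Gpx8 is the member whose RNA differed most clearly between subtypes and, as described below, between lines under deprivation. It runs over 208 bases, 41.8% of them G or C, on the minus strand at chr13:113046431-113046638 (RefSeq window on GRCm38.p6), and stops before the first annotated exon.
Gpx8 upstream: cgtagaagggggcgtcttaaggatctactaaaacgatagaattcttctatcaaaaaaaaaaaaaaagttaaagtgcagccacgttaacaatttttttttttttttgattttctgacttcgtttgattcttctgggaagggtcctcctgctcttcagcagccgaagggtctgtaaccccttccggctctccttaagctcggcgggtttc
On both strands of the full 300-base windows of all members, no match was found to the antioxidant response element core TGACNNNGC (present in 12.4% of the 32851 RefSeq windows of that length), the E-box CACGTG (7.15%), the AP-1 site TGANTCA (7.81%) or the C/EBP-ATF response element core TGATGNAAN (3.95%). This says only that these letters are not in these windows, and for that reason no base of the Gpx8 stretch is in capitals.

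Gpx1 (ENSMUSG00000063856), which spans chr9:108338903-108340343 (plus strand), ranged from 151 to 182 CPM in the 9 MYAZ cultures (median 157), from 129 to 172 CPM in the 9 LM cultures (median 154) and from 151 to 179 CPM in the 9 LM-LM cultures (median 169). The Myc310 cultures had 136, 138 and 135 CPM, below every MYAZ culture, as 44.8% of all genes tested were separated between Myc310 and MYAZ in either direction. The log2 fold change of Myc310 against MYAZ was -0.27 (standard error 0.074, adjusted p = 0.00269 from edgeR), which became -0.28 with adjusted p = 0.0961 with the line as a random block in voom. LM2, at 129 to 138 CPM, overlapped Myc310 and lay below the other lung lines. LM against MYAZ (-0.11, adjusted p = 0.0606) and LM-LM against MYAZ (0.01, adjusted p = 0.874) did not pass the test. The call in LM against MYAZ depended on the setting, since Gpx1 passed with RLE scaling (adjusted p = 0.0405), with upper-quartile scaling (0.0370) and in DESeq2 (0.0342). It also passed without LM1 (0.00825), without MYAZ12.3i (0.0311) and without MYAZ16.1e (0.0414). LM against Myc310 (0.16, adjusted p = 0.230) passed only without LM2 (0.24, adjusted p = 0.0264).

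Gpx4 (ENSMUSG00000075706), which spans chr10:80047166-80056439 (plus strand), was at nearly one level in all subtypes. The cultures lay between 211 and 239 CPM in MYAZ (median 217) and between 222 and 231 CPM in Myc310. The LM cultures lay between 210 and 234 CPM (median 227) and those of LM-LM between 184 and 244 CPM (median 224). LM2-LM, at 184 to 201 CPM, was the lowest line, and its cultures lay below all the other control cultures of these subtypes. The 95% confidence intervals of the log2 fold change were -0.10 to 0.16 for Myc310, -0.07 to 0.12 for LM and -0.12 to 0.07 for LM-LM, each against MYAZ. The processed pseudogene Gpx4-ps2 on chromosome 10 is identical to a Gpx4 transcript at 760 of 762 aligned bases and took 5.88% to 8.37% of their summed counts, so the split of reads between them is uncertain. Counts of both summed, an alternative chosen after seeing the data, gave no call for Gpx4 in these comparisons either.

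Gpx3 (ENSMUSG00000018339), which spans chr11:54902453-54910377 (plus strand), had 130, 103 and 133 counts in the cultures of MYAZ6.6g, which is 5.70, 4.32 and 5.42 CPM. MYAZ12.3i had 39, 29 and 25 counts and MYAZ16.1e only 6, 8 and 15. The LM cultures ranged from 0.406 to 1.44 CPM (median 0.685), the LM-LM cultures from 0.387 to 1.20 CPM (median 0.655), and the Myc310 cultures had 1.144, 1.496 and 0.701 CPM. The lung lines thus lay above MYAZ16.1e and below the other MYAZ lines by their line means. Against MYAZ the log2 fold change of LM was -1.60 (standard error 0.45, adjusted p = 0.00287) and that of LM-LM was -1.59 (standard error 0.45, adjusted p = 0.00272) in edgeR. Without MYAZ6.6g these values were -0.18 in both (adjusted p = 0.669 in both), and with counts summed per line they were as large (-1.59 and -1.58) but did not pass (adjusted p = 0.158 and 0.151). The exact permutation test over line means gave p = 0.5 and 0.6. In Myc310 against MYAZ the value was -1.04 (adjusted p = 0.187), which became -1.54 (adjusted p = 0.0104) without MYAZ16.1e and 0.37 (adjusted p = 0.514) without MYAZ6.6g.

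Counted over the 4 members tested, 1 was called in Myc310 against MYAZ (1 lower), where 50.9% of the 13795 genes tested were called, 23.8% higher and 27.1% lower. In LM against MYAZ 2 were called (1 higher, 1 lower), against 60.8% of all genes, 30.3% higher and 30.5% lower. In LM-LM against MYAZ 2 were called (1 higher, 1 lower), against 62.8% of all genes, 30.5% higher and 32.3% lower. In LM against Myc310 1 was called, against 4.94% of all genes, and in LM-LM against LM none of the 4 was called by edgeR or DESeq2 (Gpx1 alone had an unadjusted p under 0.05), against 0.768% of all genes. The share of members called against MYAZ was thus close to or below the share of all genes, and the Gpx8 call in LM against Myc310 was made where few genes were called.

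Genes that work with the peroxidases moved in both directions between subtypes. Of 8 genes of glutathione supply and recycling, 4 were higher and 3 lower in LM than in MYAZ, with a median log2 fold change of 0.14 beside 0.00 over all genes. Gsr, which reduces oxidised glutathione, was higher (0.88), and Gss, the glutathione synthetase, was lower (-0.80), as was the cystine transporter subunit Slc7a11 (-0.67). Of 9 genes of oxidative folding in the endoplasmic reticulum, the compartment of Gpx8, 4 were higher and 1 was lower in LM than in MYAZ, with a median of 0.22. The oxidases Ero1a (0.84) and Ero1b (0.63) had the largest increases of that list, and the disulfide isomerase Pdia3 (-0.35) was the one that was lower. Of 9 genes of selenocysteine synthesis and insertion, 4 were higher and 2 lower, with Eefsec, the elongation factor for selenocysteine, at 0.54 and Scly, which recycles selenium from selenocysteine, at -0.998. Of 17 other selenoproteins 16 were tested, with 3 higher, 6 lower and a median of -0.04.

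Removing cysteine and cystine for 6 h asked how the peroxidases respond when the precursor of glutathione is withheld. The mean CPM of Gpx1 fell by 13.7% in MYAZ16.1e and fell by 12.7% in Myc310. It fell by 11.98% in LM1, whereas the LM1-LM mean fell by 8.57%, and these falls were not shown to differ between lines. Gpx8 fell in MYAZ16.1e and Myc310 and not in LM1 or LM1-LM, and its responses in Myc310, LM1 and LM1-LM each differed from that of MYAZ16.1e by the test of the difference itself. Gpx3 fell in LM1 and LM1-LM, to 1 to 6 counts per culture, and Gpx4 rose by 8.96% to 10.5% of its mean CPM in Myc310, LM1 and LM1-LM, a rise that upper-quartile scaling did not keep in LM1 and LM1-LM. CPM in these paragraphs use TMM factors of the 24 libraries of the deprivation model, so that they match the fold changes.

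**Figure D2:**
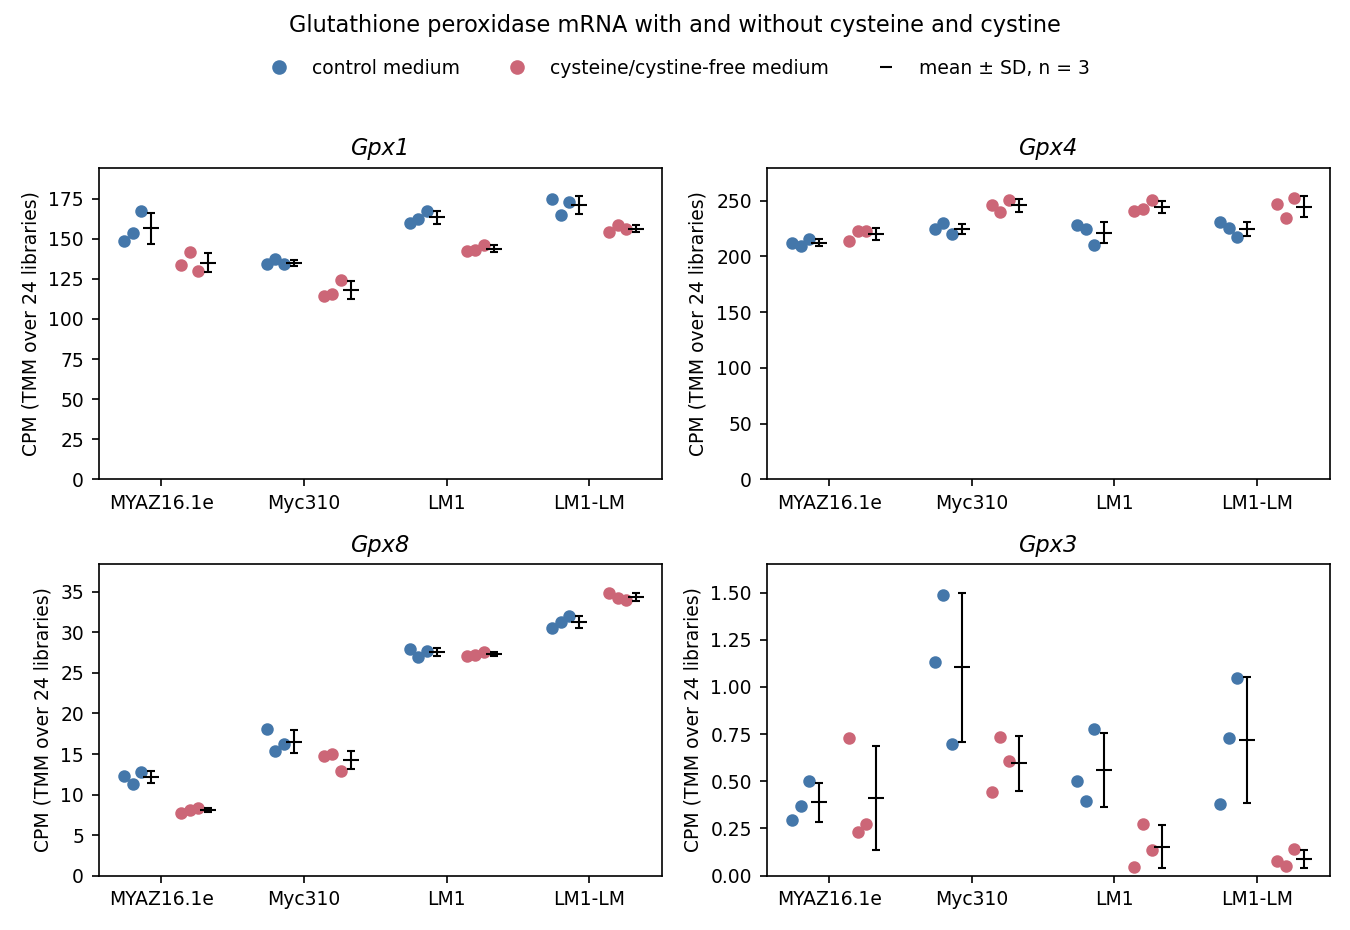
Level of each expressed member in control medium (blue) and after 6 h without cysteine and cystine (red) in 4 lines, in CPM after TMM scaling over the 24 libraries (y axes start at 0), with each of 3 cultures as a point and the mean ± SD as a black bar. Deprived Gpx1 cultures lie below the control cultures of their line in all 4 lines, whereas mean Gpx8 goes from 12.2 to 8.09 CPM in MYAZ16.1e and from 31.3 to 34.4 CPM in LM1-LM.

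For Gpx1, MYAZ16.1e had 148, 154 and 167 CPM in control medium and 133, 142 and 130 CPM without cysteine and cystine. Myc310 had 134, 137 and 134 CPM against 114, 116 and 124 CPM, LM1 had 160, 163 and 168 CPM against 142, 143 and 146 CPM, and LM1-LM had 175, 165 and 173 CPM against 154, 158 and 156 CPM. In each line all deprived cultures lay below all control cultures, as 58.9%, 69.4%, 73.2% and 74.1% of all genes tested were separated in one direction or the other, in the order of lines just given. The log2 fold changes were -0.22 (standard error 0.038, adjusted p = 1.39e-05), -0.20 (standard error 0.039, adjusted p = 5.14e-05), -0.18 (standard error 0.038, adjusted p = 7.51e-05) and -0.13 (standard error 0.037, adjusted p = 0.00270) in that order of lines, all from edgeR. The Gpx1 call was kept in all 14 alternatives of each line. The responses of Myc310, LM1 and LM1-LM exceeded that of MYAZ16.1e by 0.02 (95% confidence interval -0.09 to 0.13), 0.03 (-0.08 to 0.14) and 0.09 (-0.02 to 0.20) on the log2 scale, and none passed the test, though the last did so without control replicate 1 of MYAZ16.1e (adjusted p = 0.0487).

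For Gpx4, MYAZ16.1e had 212, 209 and 216 CPM in control medium and 214, 223 and 223 CPM under deprivation, which overlapped (log2 fold change 0.05, 95% confidence interval -0.01 to 0.12). Myc310 rose from 224, 229 and 220 CPM to 246, 240 and 251 CPM, LM1 from 228, 224 and 210 CPM to 240, 242 and 250 CPM, and LM1-LM from 230, 225 and 218 CPM to 247, 234 and 253 CPM. The log2 fold changes were 0.13 (standard error 0.031, adjusted p = 0.000559), 0.14 (standard error 0.031, adjusted p = 0.000149) and 0.12 (standard error 0.031, adjusted p = 0.000725). None of the 3 differences from the response of MYAZ16.1e passed the test (0.08, 0.09 and 0.07 on the log2 scale, adjusted p = 0.174, 0.0816 and 0.173), though that of LM1 did without a low-count filter (adjusted p = 0.0487) and without control replicate 1 of LM1 (adjusted p = 0.0410). With upper-quartile scaling the Gpx4 change of LM1 was 0.07 (adjusted p = 0.0547) and that of LM1-LM 0.04 (adjusted p = 0.232), and with library totals only it was 0.03 in LM1 and -0.01 in LM1-LM. Library totals moved the median of all genes to -0.12 in LM1 and to -0.13 in LM1-LM. With Gpx4-ps2 added, the log2 fold changes were 0.12, 0.15 and 0.13, and all 3 passed.

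Gpx3 was counted so rarely that cultures are best read as counts. MYAZ16.1e had 6, 8 and 15 counts in control medium and 16, 5 and 7 under deprivation, with no difference beyond the spread (log2 fold change 0.03, adjusted p = 0.971). Myc310 had 29, 34 and 15 counts against 10, 16 and 14, which overlapped after scaling (-0.89, adjusted p = 0.0630). This value passed without control replicate 3 of Myc310 (-1.13, adjusted p = 0.0307) and with only the libraries of Myc310 in the model (-0.88, adjusted p = 0.0387). LM1 fell from 10, 9 and 17 counts to 1, 6 and 3 (-1.83, standard error 0.59, adjusted p = 0.00701), and LM1-LM fell from 9, 18 and 23 counts to 2, 1 and 3 (-2.92, standard error 0.62, adjusted p = 0.000116). As a ratio of summed counts after scaling, the deprived level was 0.268 of the control level in LM1 (95% interval 0.119 to 0.551) and 0.123 in LM1-LM (0.0430 to 0.286), exact intervals that cover counting error only. The calls of both lines were kept in all 13 alternatives that gave a value. With only the libraries of the line in the model, Gpx3 did not pass the low-count filter in LM1 or LM1-LM and could not be tested.

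The Gpx3 response of LM1-LM was lower than that of MYAZ16.1e by 2.96 on the log2 scale (log2 difference -2.96, standard error 0.83, adjusted p = 0.00314), and this was kept in all 19 alternatives. That of LM1 differed by -1.86 (standard error 0.79, adjusted p = 0.0487) and was lost in 9 of 19 alternatives. Among these were leaving out LM1 control replicate 1 (adjusted p = 0.0563) or 3 (0.133), LM1 deprived replicate 1 (0.143) or 3 (0.0893), MYAZ16.1e control replicate 1 (0.0868) or 2 (0.0739) and MYAZ16.1e deprived replicate 1 (0.249). The LM1 difference was -1.20 in the last of these, and ranged from -2.57 to -1.20 over all 19 alternatives. The response of Myc310 was not shown to differ (-0.93, 95% confidence interval -2.29 to 0.43).

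Gpx8 gave the widest spread of responses among the members with more than a few counts. MYAZ16.1e fell from 12.34, 11.32 and 12.84 CPM to 7.79, 8.10 and 8.39 CPM, with no overlap (log2 fold change -0.59, standard error 0.076, adjusted p = 9.10e-08). Myc310 fell from 18.1, 15.3 and 16.2 CPM to 14.80, 15.03 and 12.96 CPM, also without overlap (-0.22, standard error 0.067, adjusted p = 0.00529). This call was lost without control replicate 1 of Myc310 (-0.15, adjusted p = 0.0725) or deprived replicate 3 (-0.15, adjusted p = 0.0622). LM1 had 28.0, 27.0 and 27.7 CPM against 27.1, 27.2 and 27.6 CPM, which overlapped (-0.01, 95% confidence interval -0.13 to 0.11). With library totals only, the LM1 value was -0.13 (adjusted p = 0.0499 in edgeR), close to the shift of the median of all genes given above. LM1-LM had 30.6, 31.2 and 32.0 CPM against 34.9, 34.2 and 34.0 CPM, and every deprived culture was above every control culture (0.14, standard error 0.057, adjusted p = 0.0303).

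The call of the small Gpx8 rise in LM1-LM was lost in 10 of 14 alternatives, with adjusted p between 0.0242 and 0.940, and none of the 14 turned its direction. Leaving out control replicate 1 or 2 of LM1-LM gave adjusted p = 0.0907 and 0.0754, and leaving out deprived replicate 1, 2 or 3 gave 0.0997, 0.0632 and 0.0526, while the log2 fold change stayed between 0.12 and 0.15 without any 1 culture. It was 0.06 with upper-quartile scaling and 0.00604 with library totals only, where the median of all genes moved to -0.08 and -0.13. The differences between lines were firmer. The response of Gpx8 exceeded that of MYAZ16.1e by 0.37 in Myc310 (standard error 0.10, adjusted p = 0.00347), by 0.58 in LM1 (standard error 0.096, adjusted p = 6.98e-06) and by 0.73 in LM1-LM (standard error 0.094, adjusted p = 9.74e-08) on the log2 scale, and each passed in all 19 alternatives. The level in control medium followed the same order, from MYAZ16.1e through Myc310 and LM1 to LM1-LM, over these 4 lines, so the control cultures enter both the level and the response.

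**Figure D3:**
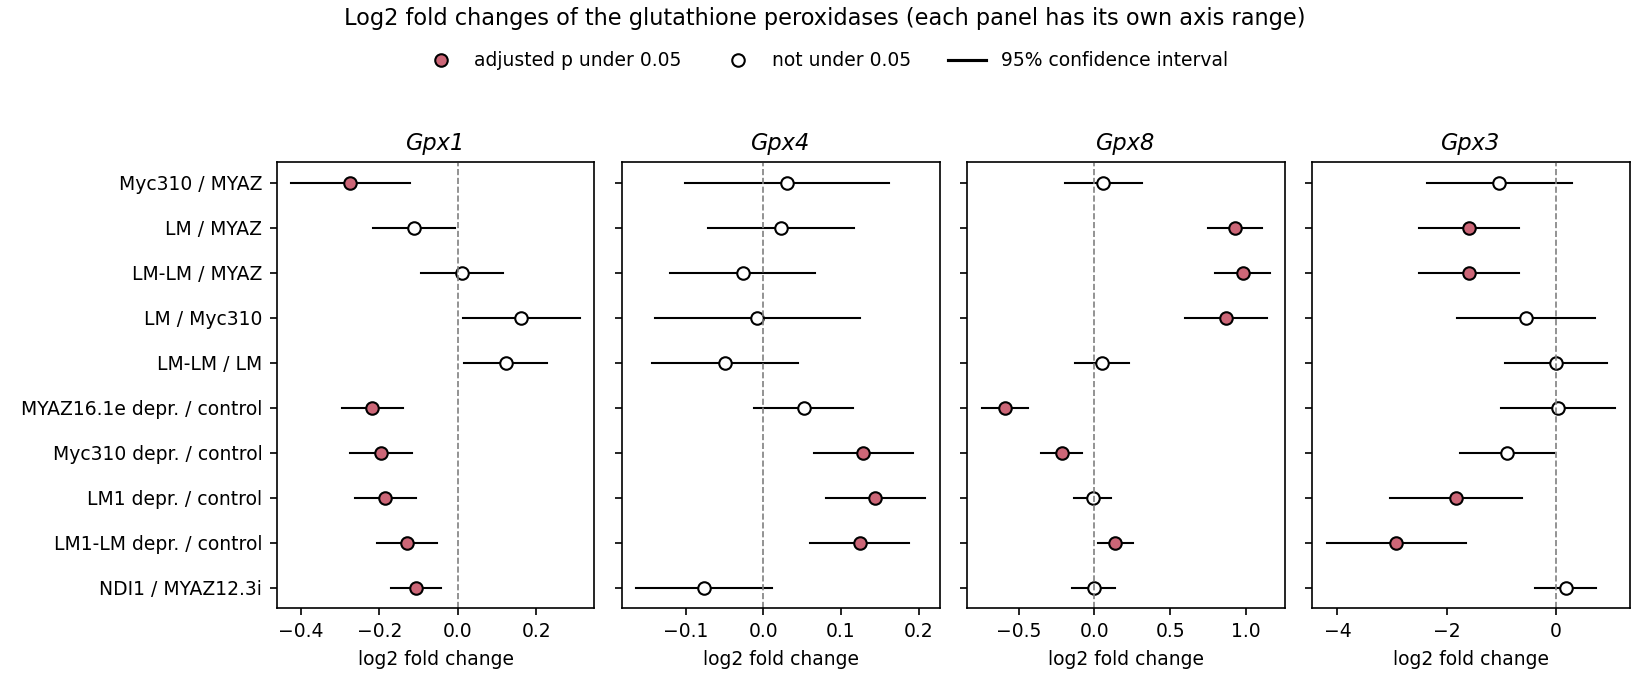
Log2 fold change (x axes, each panel with its own range) of the 4 members with counts in 10 comparisons (rows), with the 95% confidence interval as a line and filled points where edgeR's adjusted p was under 0.05. Gpx1 lies left of 0 in all 4 deprived lines, and Gpx8 moves from -0.59 in deprived MYAZ16.1e to 0.14 in deprived LM1-LM.

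Over the 4 members tested under deprivation, 2 were called in MYAZ16.1e (2 lower), where 53.7% of the 13400 genes tested were called, 26.6% higher and 27.1% lower. In Myc310 3 were called (1 higher, 2 lower), against 66.8% of all genes, 32.8% higher and 33.9% lower. In LM1 3 were called (1 higher, 2 lower), against 71.1% of all genes, 35.8% higher and 35.3% lower. In LM1-LM all 4 tested were called (2 higher, 2 lower), against 72.4% of all genes, 36.5% higher and 35.9% lower. Of the differences from the response of MYAZ16.1e, 1 member was called for Myc310, 2 for LM1 and 2 for LM1-LM, against 40.3%, 52.2% and 54.8% of all genes. So many genes changed that the number of members called says little about this family, and the sizes and directions of the single members carry the result. These 3 differences share the MYAZ16.1e libraries. Of the genes called in them, 49.2%, 51.5% and 51.7% were higher with TMM, and 37.9%, 33.7% and 34.1% with library totals only.

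Several genes that work with the peroxidases had larger fold changes than Gpx1, Gpx4 or Gpx8, among them Slc7a11, Ero1a and Lrp8. Of the 8 genes of glutathione supply and recycling, 1 was higher in each line and 4 were lower in MYAZ16.1e, whereas 6 were lower in each of the other lines (Myc310, LM1, LM1-LM). The one that rose was Slc7a11, a subunit of the cystine importer, by 3.42, 2.94, 3.97 and 3.93 on the log2 scale for the same order of lines. The list had medians of -0.09, -0.37, -0.36 and -0.54, while the medians over all genes were close to 0 (-0.01 in Myc310). The largest decreases in LM1-LM were those of Gsr (-0.78) and of G6pdx, which supplies NADPH (-0.69).

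Of the 9 genes of selenocysteine synthesis and insertion, 3 rose in each line and 2, 4, 4 and 5 fell, again from MYAZ16.1e to LM1-LM. Lrp8, a receptor through which cells take up selenoprotein P, had the largest decrease in MYAZ16.1e (-0.82) and in LM1-LM (-2.92). Secisbp2l, a relative of the protein that binds the selenocysteine insertion element, had the largest increase in both (0.53 and 0.93). Of the 15 other selenoproteins tested, 1, 7, 8 and 7 rose and 7, 6, 7 and 7 fell. In LM1-LM the largest increases were those of Selenos (0.86) and Selenok (0.55), both of the endoplasmic reticulum, and the largest decreases those of Txnrd3 (-1.32) and the methionine sulfoxide reductase Msrb1 (-0.81).

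Of the 9 genes of oxidative folding, 2, 2, 3 and 3 rose and 5 fell in every line. Ero1a, the oxidase that makes hydrogen peroxide in the endoplasmic reticulum, rose by 1.36 in MYAZ16.1e and 2.13 in LM1-LM, and the chaperone Hspa5 rose by 0.43 and 1.62. The disulfide isomerases Pdia6 (-0.43) and Pdia4 (-0.40) had the largest decreases in LM1-LM. Ero1b was lower in MYAZ16.1e (-0.43), not called in Myc310 (0.02) and higher in LM1 (0.33) and LM1-LM (0.50).

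The MYAZ12.3i_NDI1 line was compared with its parent in control medium, over 6 libraries and 12841 genes. Gpx1 had 145, 147 and 142 CPM in MYAZ12.3i_NDI1 and 156, 154 and 157 CPM in MYAZ12.3i, a small decrease without overlap (log2 fold change -0.11, standard error 0.030, adjusted p = 0.0233 from edgeR). Of all genes tested, 34.7% were without overlap between these lines in either direction. The call was lost without replicate 1 or 3 of MYAZ12.3i (adjusted p = 0.0827 and 0.0830) and without replicate 1 or 3 of MYAZ12.3i_NDI1 (0.0506 and 0.0544). The log2 fold change of Gpx1 stayed between -0.118 and -0.0890 without any 1 culture. Gpx4 (-0.08, adjusted p = 0.223) did not pass, though it did without replicate 1 of MYAZ12.3i_NDI1 (-0.13, adjusted p = 0.0194). Gpx3 (0.18, 95% confidence interval -0.39 to 0.74) and Gpx8 (0.00, 95% confidence interval -0.15 to 0.14) did not pass either. Of the 4 members tested, 1 was called, against 17.4% of all genes.

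Across the means of the 15 groups of line and condition, the members did not follow one another closely: Pearson's r between pairs of the 4 expressed members ranged from -0.34 (Gpx3 and Gpx4) to 0.37 (Gpx1 and Gpx8). The groups share lines and ancestry, so these values are a description. Among 8962 genes whose mean log2 CPM reached 3, the patterns most like that of Gpx8 were those of Sec24c (r = 0.95), Apaf1 (r = 0.93) and Plod1 (r = 0.93). For Gpx4 they were Rere (r = 0.90), Snx15 (r = 0.90) and Samd5 (r = 0.88), for Gpx1 Morc3 (r = 0.84) and Cactin (r = 0.81), and for Gpx3 Itpkb (r = 0.92), Lix1l (r = 0.90) and 1700017B05Rik (r = 0.89).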

How the data were processed

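Polyadenylated RNA was prepared with a directional kit and sequenced from both ends. According to the study's methods and the submitters' processing notes, the authors aligned the reads with STAR to GRCm38 and quantified them with RSEM. The table the authors deposited gives raw counts per gene, all of them whole, and no rounding was needed. The floor of 3 counts and the exact intervals of the Gpx3 count ratios cover counting error only, while the confidence intervals of fold changes come from edgeR and include the spread between cultures. All 45 columns were mapped by library name. Counts were tested with edgeR 4.0.16 in R 4.3.3 (TMM, filterByExpr, quasi-likelihood test, Benjamini-Hochberg adjustment, threshold 0.05) in 3 models: subtype (30 control libraries), deprivation (24 libraries, 8 groups, with interaction contrasts) and NDI1 (6 libraries). The models were tested on simulated data. Alternatives used limma 3.58.1 (voom) and DESeq2 1.42.0. A log2 CPM carries a prior count of 2. The members and lists were chosen with earlier results of these data known. Named genes are the members, up to 2 list genes per direction with the largest change past the threshold, and the 3 genes most alike in pattern, of which 1 for Gpx1 is not reported here. Ero1b under deprivation of Myc310, LM1 and LM1-LM was named after its values were seen. Scaling by library totals and summing Gpx4 with Gpx4-ps2 were alternatives chosen after seeing the data. Adgre1, Cd3e, Cldn5 and Sftpa1 were not used here.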

Additional observations from a re-analysis of the deposited data

Results flagged for a closer look

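The response to cysteine and cystine removal differed from that of MYAZ16.1e for Gpx8 in Myc310 (log2 difference 0.37), in LM1 (0.58) and in LM1-LM (0.73), and for Gpx3 in LM1 (-1.86) and in LM1-LM (-2.96), each by the interaction contrast in edgeR. The Gpx3 call of LM1 (adjusted p = 0.0487) was lost in 9 of 19 alternatives, among them the replicate block (adjusted p = 0.0521) and 7 omissions of a single culture (adjusted p up to 0.249), whereas that of LM1-LM (adjusted p = 0.00314) was kept in all 19. The Gpx3 differences rest on 1 to 23 counts per culture.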

How the results depend on the processing

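Of 793 alternatives over 52 results of single members, 702 kept direction and side of the threshold, 36 lost the call, 17 gained one and 38 changed sign. The number of members called moved with voom and a random line block to 0 in Myc310 against MYAZ, to 1 in LM and in LM-LM against MYAZ and to 0 in LM against Myc310, and with counts summed per line to 1 in LM and in LM-LM against MYAZ. In deprived LM1-LM it was 2 with upper-quartile scaling and 2 with library totals only, and 3 with RLE, DESeq2, no filter or only the libraries of the line. In LM against MYAZ it was 3 with RLE, upper-quartile scaling, DESeq2 or library totals. With only the libraries of the line it was 4 in deprived Myc310 and 2 in deprived LM1, which also had 2 with upper-quartile scaling. Leaving out a line or culture gave 1 to 2 in Myc310 against MYAZ, 1 to 3 in LM against MYAZ, 1 to 2 in LM-LM against MYAZ and in LM against Myc310, 2 to 4 in deprived Myc310, 3 to 4 in deprived LM1-LM, 1 to 2 for the response of LM1 and 2 to 3 for that of LM1-LM against MYAZ16.1e, and 0 to 1 for NDI1. It was the same throughout in the other comparisons.

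Equal replicate numbers did not pair the cultures (correlation of deviations between -0.06 and 0.08 under deprivation). With the replicate number as a block, 1 member was called for the response of LM1 against MYAZ16.1e, since Gpx3 was lost, and the block changed no other count of members called.

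Signs changed only for values that had not been called, apart from Gpx4 in deprived LM1-LM (-0.00801 with library totals). For Gpx1 they were -0.00365, -0.00458 and -0.0156 in LM-LM against MYAZ with upper-quartile scaling, voom and library totals. The Gpx1 responses against MYAZ16.1e with upper-quartile scaling and library totals were -0.0130 and -0.0330 in Myc310 and -0.0478 and -0.108 in LM1, and with library totals -0.0668 in LM1-LM. For Gpx4 they were -0.000605 in LM against MYAZ and -0.0483 in the LM1 response with library totals, and -0.0133 and -0.0822 in the LM1-LM response with upper-quartile scaling and library totals. Gpx8 was 0.00300 for NDI1 with library totals.

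Leaving out a line or culture moved Gpx3 between -1.54 and 0.37 and Gpx8 between -0.0947 and 0.240 in Myc310 against MYAZ. In LM-LM against MYAZ it moved Gpx1 between -0.0267 and 0.0731 and Gpx4 between -0.0904 and 0.0639, and in LM against Myc310 Gpx4 between -0.0203 and 0.00522. In LM-LM against LM the ranges were -0.16 to 0.15 for Gpx3, -0.113 to 0.0407 for Gpx4 and -0.00823 to 0.15 for Gpx8. Gpx3 in deprived MYAZ16.1e ranged from -0.64 to 0.30, the Gpx1 response from -0.0298 to 0.0617 in Myc310 and -0.0248 to 0.0668 in LM1, and Gpx8 for NDI1 from -0.0196 to 0.00753. The causes were not tested. Depth limits Gpx3 and Gpx7, whose counts per library were 1 to 133 and 0.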
